A study of Mus musculus with 6 samples.

Results

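The genes described are the matrix metalloproteinases (Mmp), the membrane-bound disintegrin metalloproteinases (Adam), their secreted relatives with thrombospondin repeats (Adamts), the Adamts-like proteins (Adamtsl) and the tissue inhibitors of metalloproteinases (Timp), taken by symbol from a table of 19928 genes measured in mouse adipose tissue. The rule found 68 genes: 19 Mmp, 21 Adam, 19 Adamts, 5 Adamtsl and 4 Timp genes. Of these, 41 had a mean of at least 1 FPKM (fragments counted per unit of transcript length and of library depth) over the 6 libraries and entered the test: 12 Mmp, 10 Adam, 10 Adamts, 5 Adamtsl and 4 Timp genes. The other 27 lay under that minimum.

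Mmp enzymes are zinc-dependent proteases that cut collagens, laminins and other matrix proteins, and those with a membrane anchor also activate other Mmp proenzymes at the cell surface. Adam proteins sit in the membrane and shed the outer parts of growth factors, receptors and adhesion molecules, although some have lost the catalytic residues. Adamts enzymes are secreted and include the proteoglycan-cleaving hyalectanases and the procollagen N-proteinases, while Adamtsl proteins lack the protease domain and bind microfibrils. Timp proteins block the active site of these enzymes with different preferences. In growing fat the matrix around adipocytes is remodelled, and Mmp14 is known there for cutting pericellular collagen.

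The study compared adipose tissue of KM mice in a control group (3 samples) with that of KM mice fed the root drug radix Angelica sinensis (RAS) at 10.00 g/kg body weight (3 samples). The title names a high-fat diet without saying whether both groups were fed it, and no source used here gives the fat depot, sex or age. Whether each sample came from its own animal is not in the labels, and p-values cover only the spread among these 6 samples, which may be technical. Libraries held 14.4 to 15.7 M assigned reads. Adipocyte markers were present throughout: all 8 of the list were in the table, and Adipoq, the hormone adiponectin, lay at 2357 to 3460 FPKM. Of the 41 tested members, controls 1 and 3 each held the highest value for 12, control 1 the lowest for 11 and RAS 3 the lowest for 18. Control 1 also had the lowest level of all 6 mesothelium markers, which summed to 31.0 FPKM there, 197 and 249.1 in controls 2 and 3, and 99.1 to 158 with RAS. All 7 smooth muscle and pericyte markers had lower means with RAS (summed 375 to 501 FPKM in control and 293 to 354 with RAS). All 4 tested of 7 skeletal muscle markers also had lower means (69.6 to 206 and 22.7 to 61.0 over the 7). Acta1 was the main part of that sum, at 66.78 to 180.0 FPKM in control and 21.19 to 59.57 with RAS. The other tested ones, Mylpf, Tnnc2 and Tnni2, reached the minimum only through control 1 (6.741, 6.002 and 5.698 FPKM). They lay at 0.1354 to 0.7288 elsewhere, where the groups overlapped, so their lower means rest on control 1 alone. The adipocyte sum was higher with RAS (28100 to 35100 and 38900 to 54700), with Fabp4 as its main part. The sums of the 10 fibroblast markers overlapped between the groups (3310 to 5290 and 3350 to 4690), with Gsn as their main part (2381 to 4336). Of the 10 markers, 6 were lower and 4 higher with RAS. In each of these lists no marker was at 0 in all libraries. The part of these shifts in the results was not tested. In bulk tissue, fewer cells of a type and less RNA per cell cannot be told apart.

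All 10 tested Adamts genes had lower mean levels with RAS, led by the hyalectanases Adamts15 and Adamts4, and the group ranges were apart for 6 of them. On the log2 scale the other families were lower for 7 of 10 Adam, 4 of 5 Adamtsl, 7 of 12 Mmp and 2 of 4 Timp genes. Ranges overlapped for all Timp genes and for most Mmp and Adam genes. No gene passed the test. With limma on log2(FPKM + 1), adjusted over all genes, 0 of 12606 genes and so 0 of the 41 members had an adjusted p under 0.05 (0% called); the smallest among members was 0.174. At an unadjusted p under 0.05 the members counted 9 lower (6.41% of all genes tested were lower at that level) and 1 higher (3.86% of all genes). RAS and control ranges of FPKM were apart for 10 members on the lower side, against 12.5% of all genes, and for 1 on the higher side, against 5.42%. Log2 differences, here and below RAS minus control on the log2(FPKM + 1) scale, were negative for 30 of 41 members, against 57.0% of all genes, and their median was -0.15 against -0.04 for all genes.

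**Figure D1:**
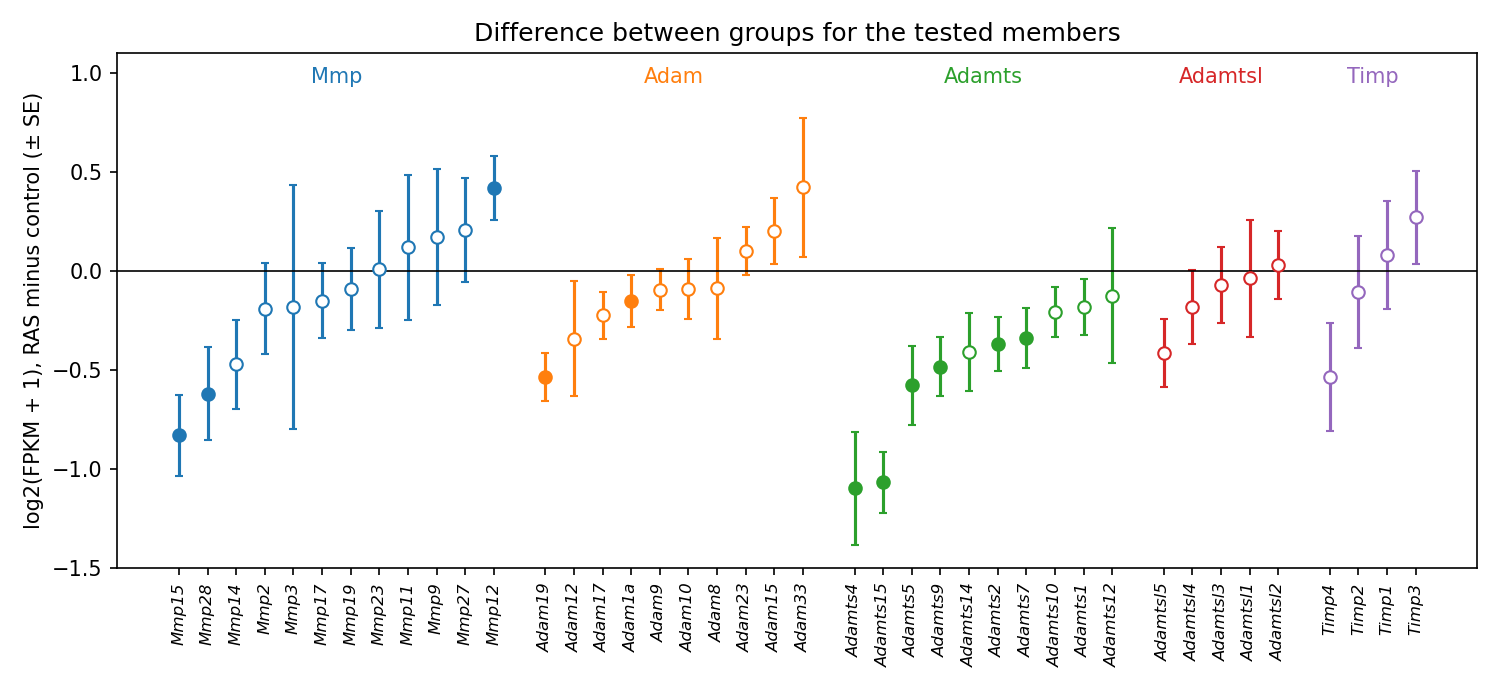
Log2 difference between groups (vertical axis, log2(FPKM + 1), RAS minus control) for each of the 41 tested members by family. Points are limma estimates with bars of 1 SE, and filled points mark genes whose group ranges did not overlap. All 10 Adamts genes lie below 0, and Mmp12 is the filled point above it.

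Among the Adamts genes, all 10 tested had a negative log2 difference (median -0.39), against 57.0% of all genes tested. Of the 10, 5 had an unadjusted p under 0.05 (6.41% of all genes were lower at that level). The group ranges were apart on the lower side for 6, against 12.5% of all genes: Adamts2, 4, 5, 7, 9 and 15. The hyalectanases, which cut the core proteins of versican and aggrecan, gave 4 of these. Adamts15 (chromosome 9, 30899155 to 30922452; positions here are those of the authors' table, which match GRCm38 gene models) lay at 11.4, 12.7 and 10.5 FPKM in controls 1 to 3 and at 5.14, 6.04 and 3.92 in RAS 1 to 3. Every RAS library was below every control, and the RAS mean was 0.436 times that of control. On the log2 scale Adamts15 was at -1.07 ± 0.15 (difference ± SE, as for the other members; limma, adjusted p = 0.174). Adamts4 (chromosome 1, 171250422 to 171259922) lay at 5.76, 2.46 and 2.76 FPKM in control and 1.35, 1.36 and 0.615 with RAS. The groups did not overlap, with control 1 well above the other controls, and the log2 difference was -1.10 ± 0.29 (adjusted p = 0.315). It rested on 30 reads in its lowest library, and without both control 1 and RAS 3 it was -0.61.

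Adamts5 (chromosome 16, 85858157 to 85901125), a main aggrecanase and the most abundant Adamts gene here, lay at 56.1, 33.7 and 39.6 FPKM in control and 26.7, 25.6 and 31.9 with RAS. The nearest libraries, control 2 and RAS 3, differed little, and the log2 difference was -0.58 ± 0.20 (adjusted p = 0.414), or -0.38 without control 1. Its unadjusted limma p was 0.00868 to 0.0671 with 1 library left out, so not always under 0.05. Adamts9, a hyalectanase also known for its role in secretion and cilia, lay at 14.6, 10.2 and 10.5 in control and 8.12, 8.37 and 7.59 with RAS (log2 difference -0.48 ± 0.15, adjusted p = 0.370). Its RAS values were close together and all below control. Adamts1, which stands beside Adamts5 on chromosome 16, lay at 21.8, 15.7 and 17.8 in control and 17.04, 14.5 and 16.3 with RAS. These ranges overlapped (log2 difference -0.18 ± 0.14, adjusted p = 0.687), and without control 1 the difference was -0.062. Adamts8, the sixth hyalectanase and the neighbour of Adamts15 on chromosome 9, was under the minimum with a mean of 0.281 FPKM.

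Adamts2, which removes the N-propeptide of fibrillar procollagens, lay at 31.6, 29.8 and 36.2 FPKM in control and 24.2, 28.5 and 22.3 with RAS. The ranges were apart by a narrow gap between control 2 and RAS 2 (log2 difference -0.37 ± 0.14, adjusted p = 0.431). The unadjusted limma p of Adamts2 was 0.0166 to 0.112 with 1 library left out, so not always under 0.05. With the replicate number as a block it was 0.0522. Adamts14, a second enzyme of this kind, had a log2 difference of -0.41 (-0.24 without RAS 3), and the third, Adamts3, was under the minimum at 0.256 FPKM. Adamts7, known for cleaving cartilage oligomeric matrix protein, lay at 1.87 to 2.31 in control and 1.12 to 1.69 with RAS (log2 difference -0.34). Adamts10, a microfibril-binding member, and Adamts12 had log2 differences of -0.21 (-0.13 without control 3) and -0.13. Adamts12 was highest in RAS 2 (15.2 FPKM) and lowest in RAS 3 (5.06), and its difference turned to 0.21 without RAS 3 and 0.02 without control 1, so 9 of 10 Adamts genes were below 0 there. Summed over all 19 Adamts genes, the level was 172, 132 and 149 FPKM in controls 1 to 3 and 107, 118 and 101 in RAS 1 to 3. The sums did not overlap, with means of 151 ± 20.2 and 109 ± 8.41 (SD, n = 3 each).

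**Figure D2:**
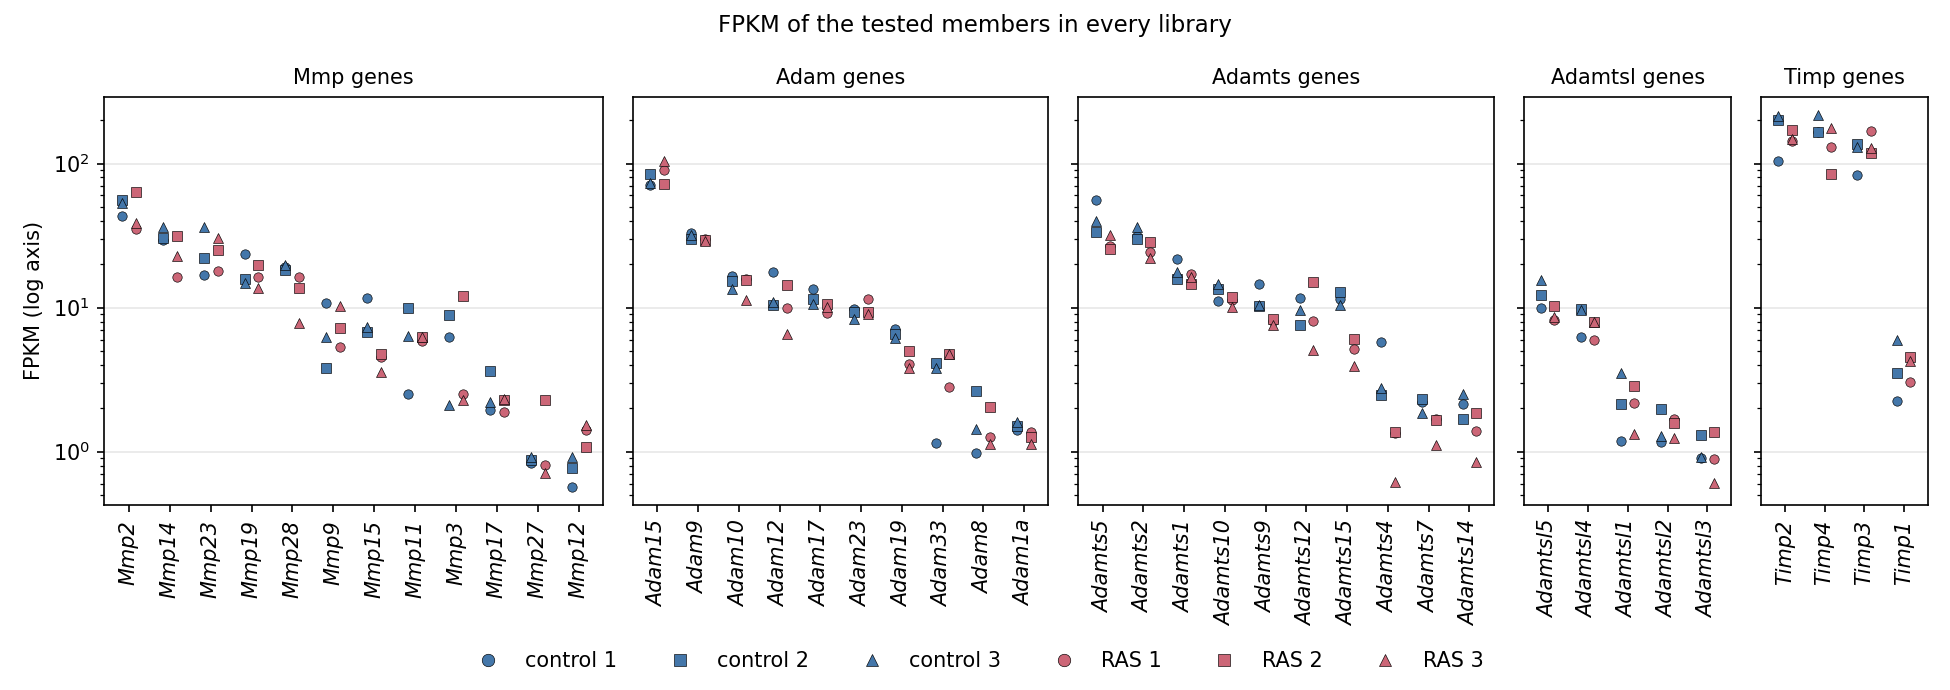
FPKM (log axis) of the 41 tested members in each library, by family and ordered by mean level. Blue symbols are control and red symbols RAS libraries, with circle, square and triangle for libraries 1, 2 and 3. Timp2, Timp3 and Timp4 stand at 82.8 to 217 FPKM, and for Adamts15 the 3 red symbols lie below the 3 blue ones.

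Of the 5 Adamtsl genes, 4 had a negative log2 difference (median -0.07), and none had separate group ranges. Adamtsl5 (chromosome 10, 80340716 to 80348446) lay at 9.88, 12.2 and 15.5 FPKM in control and 8.17, 10.3 and 8.63 with RAS. The ranges overlapped between control 1 and RAS 2 (log2 difference -0.41 ± 0.17, adjusted p = 0.469). Without control 3 the difference was -0.26, and its unadjusted limma p was no longer under 0.05 without control 2, control 3, RAS 1 or RAS 3, with no minimum, under quantile normalization or with median-ratio size factors. Adamtsl4, a fibrillin-binding protein of the eye's zonule and other microfibrils, lay at 6.23, 9.71 and 9.68 in control and 5.99, 7.98 and 8.001 with RAS, and control 1 stood among the RAS values. Its log2 difference of -0.18 was -0.37 without control 1 and -0.062 without RAS 1. Adamtsl1 lay at 1.18, 2.15 and 3.50 in control and 2.18, 2.85 and 1.33 with RAS. It varied within groups more than between them (log2 difference -0.04 ± 0.30). Adamtsl2 and Adamtsl3 had log2 differences of 0.03 and -0.07.

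The Mmp genes showed no common direction: 7 of 12 tested had a negative and 5 a positive log2 difference (median -0.12). At an unadjusted p under 0.05, 2 were lower and 1 higher (6.41% and 3.86% of all genes tested). The membrane-type enzymes Mmp14, Mmp15 and Mmp17 were on the lower side. Mmp15 (chromosome 8, 95352337 to 95374293), a membrane-type enzyme that can activate Mmp2, lay at 11.7, 6.72 and 7.36 FPKM in control and 4.54, 4.77 and 3.57 with RAS. All RAS libraries were below all controls, and control 1 was the highest (log2 difference -0.83 ± 0.20, adjusted p = 0.287). Mmp14 (chromosome 14, 54431604 to 54441258) lay at 29.6, 30.5 and 36.3 in control and 16.4, 31.4 and 23.0 with RAS. RAS 2 stood inside the control range (log2 difference -0.47 ± 0.23, adjusted p = 0.530), and the difference was -0.24 without RAS 1 and -0.69 without RAS 2. Mmp17, which is held by a lipid anchor, had a log2 difference of -0.15, and Mmp16, Mmp24 and Mmp25 were under the minimum.

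Mmp28 (chromosome 11, 83441876 to 83462961), also called epilysin, lay at 19.0, 18.4 and 19.9 FPKM in control and 16.3, 13.6 and 7.84 with RAS. The controls were close together and above all RAS libraries (log2 difference -0.62 ± 0.24, adjusted p = 0.441), and without RAS 3 the difference was -0.34. With 1 library left out, the unadjusted limma p of Mmp28 was 0.00877 to 0.075, so not always under 0.05. Mmp12 (chromosome 9, 7347374 to 7360461), the metalloelastase of macrophages, was the member with separate ranges on the higher side. It lay at 0.572, 0.775 and 0.923 FPKM in control and 1.42, 1.09 and 1.54 with RAS, on 39 to 115 reads per library. The log2 difference was 0.42 ± 0.16 (adjusted p = 0.447), 0.76 with a pseudocount of 0.1 and 0.28 without control 1 and RAS 3. Its unadjusted limma p was no longer under 0.05 without control 1, control 2, RAS 1 or RAS 3. All controls were under 1 FPKM, so Mmp12 reached the minimum only through the RAS libraries. Macrophage markers did not separate the groups: 3 of 8 tested were higher, and the 9 in the table summed to 471 to 734 FPKM in control and 537 to 688 with RAS.

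The gelatinase Mmp2 was the most abundant Mmp gene, at 43.5, 55.9 and 53.1 FPKM in control and 35.2, 63.1 and 38.6 with RAS. RAS 2 was above every control and the other RAS libraries below (log2 difference -0.19 ± 0.23, adjusted p = 0.795). The Mmp2 difference was -0.032 without RAS 1 and -0.44 without RAS 2, the latter with an unadjusted limma p under 0.05. Mmp23, a short membrane-bound form, lay at 16.8, 22.0 and 36.1 in control and 18.0, 24.97 and 30.3 with RAS, with no difference in mean beyond its error (log2 difference 0.01 ± 0.29). Mmp3, the stromelysin that activates other Mmp proenzymes, varied most of all tested members: it lay at 6.23, 8.82 and 2.102 in control and 2.504, 12.1 and 2.28 with RAS. Its SD within groups on the log2 scale was 1.00, against a median of 0.186 over all genes tested. Mmp9, the second gelatinase and a product of neutrophils and macrophages, was at 3.82 to 10.8 in control and 5.33 to 10.3 with RAS (log2 difference 0.17). Of 8 neutrophil markers, 3 were tested and all 3 had higher means with RAS (the 8 summed to 4.51 to 9.22 FPKM in control and 10.6 to 22.5 with RAS). Each of the 3 overlapped between the groups. S100a8 was at 2.729 to 5.955 FPKM in control and 3.576 to 15.46 with RAS, S100a9 at 0.8856 to 1.172 and 0.482 to 7.075. Retnlg was at 0 to 2.154 and 0.3289 to 5.804. S100a8 gave 15.46 of the 17.24 FPKM summed in RAS 1. The markers under the minimum went both ways. Elane was at 0.4135 to 0.6892 in control and 0.9298 to 2.035 with RAS, and Ngp at 0.05401 to 0.1689 and 0 to 0.05826. Camp was at 0 to 0.3591 and 0 to 0.2115, Mpo at 0 to 0.1018 and 0 to 0.1133, and Ltf at 0.01896 to 0.05702 and 0 to 2.215. The part of neutrophils in the Mmp9 level was not tested. The neutrophil collagenase Mmp8 had at most 1 read in any library. Log2 differences were -0.09 for Mmp19, 0.12 for Mmp11 and 0.20 for Mmp27, and Mmp27 was at 2.28 FPKM in RAS 2 and 0.706 to 0.915 elsewhere.

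Promoter windows of 4 members are shown to compare the Mmp cluster of chromosome 9 (Mmp3, with the widest spread, and Mmp12, higher with RAS) with Mmp15 and Adam19, which had separate ranges on the lower side. RefSeq windows (GRCm38.p6) were found for 43 of the 68 members, and the 250 bases before each annotated start were searched on both strands for the AP-1 motif TGANTCA, the TATA box TATAAA and the GC box GGGCGG. Capitals mark these motifs, which did not overlap in the windows shown. The windows are chr9:7445572-7445821, chr9:7347124-7347373, chr8:95352046-95352295 and chr11:46055734-46055983, all on the plus strand, and are the reference sequence of another mouse strain than the one studied.
Mmp3: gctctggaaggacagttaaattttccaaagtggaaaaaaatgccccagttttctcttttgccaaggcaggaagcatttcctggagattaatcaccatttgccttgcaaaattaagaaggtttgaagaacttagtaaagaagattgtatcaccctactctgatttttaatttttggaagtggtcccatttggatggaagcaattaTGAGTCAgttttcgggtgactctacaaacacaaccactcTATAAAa
Mmp12: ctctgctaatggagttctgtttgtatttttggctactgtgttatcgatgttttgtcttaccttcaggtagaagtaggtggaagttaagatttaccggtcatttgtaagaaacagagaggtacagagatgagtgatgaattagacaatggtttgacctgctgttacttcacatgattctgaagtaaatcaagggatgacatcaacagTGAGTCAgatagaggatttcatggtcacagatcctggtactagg
Mmp15: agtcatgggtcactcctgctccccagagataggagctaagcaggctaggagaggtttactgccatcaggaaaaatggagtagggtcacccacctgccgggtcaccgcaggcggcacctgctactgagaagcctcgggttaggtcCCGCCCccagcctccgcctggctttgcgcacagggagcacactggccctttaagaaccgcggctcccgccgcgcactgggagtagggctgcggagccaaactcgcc
Adam19: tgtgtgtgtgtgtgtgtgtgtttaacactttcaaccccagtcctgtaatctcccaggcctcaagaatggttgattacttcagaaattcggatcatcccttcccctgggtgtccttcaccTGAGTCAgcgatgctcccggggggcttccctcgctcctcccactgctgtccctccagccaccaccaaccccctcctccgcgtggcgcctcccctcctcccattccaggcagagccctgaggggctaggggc

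The AP-1 motif stood 46 to 40 bases before the start in Mmp3 and 44 to 38 bases before it in Mmp12. In Adam19 it stood 131 to 125 bases before the start, and Mmp15 held a GC box 106 to 101 bases before its start. The reference held 3 windows for Adam19 and 2 for Mmp12, and AP-1 was found only in the window shown of each. The TATAAA match of Mmp3 stood 7 to 2 bases before the annotated start, and whether it acts as a TATA box was not tested. The 43 members had 48 windows. Of these 48, 6 held the AP-1 motif, each of a different member (6.75% of all 32851 windows did). Of these 6 members, 5 (Mmp3, 7, 10, 12 and 13) were among the 7 cluster genes with a window. TATAAA was found in 7 of the 48 windows, of 7 members (12.4% of all windows). Both motifs stood together in 4 of the 48, those of Mmp3, 7, 10 and 13 (1.21% of all windows). The GC box was found in 24 of the 48 windows, of 24 members (32.7% of all windows), and in 0 of the 7 cluster genes. Of the cluster, Mmp3, Mmp12 and Mmp27 were tested, while Mmp7, 8, 10 and 13 had means under 0.1 FPKM. These matches are descriptions of letters in a window, and the levels of Mmp3 and Mmp12 differed in pattern across the libraries: Mmp3 was highest in RAS 2, control 2 and control 1, and Mmp12 in RAS 3, RAS 1 and RAS 2.

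Among the Adam genes, 7 of 10 tested had a negative log2 difference (median -0.09), against 57.0% of all genes tested. On the lower side, 1 had an unadjusted p under 0.05 (6.41% of all genes). Adam19 (chromosome 11, 46055987 to 46147343), a sheddase of neuregulin, lay at 7.12, 6.53 and 6.18 FPKM in control and 4.04, 4.96 and 3.80 with RAS. All RAS libraries were below all controls (log2 difference -0.54 ± 0.12, adjusted p = 0.274), and leaving out any library kept the difference between -0.63 and -0.47. Adam1a, at 1.13 to 1.61 FPKM, also had separate ranges, with a log2 difference of -0.15.

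The most abundant Adam gene was Adam15, at 70.4, 85.1 and 73.5 FPKM in control and 90.2, 72.0 and 103.7 with RAS. The groups overlapped, with RAS 2 at the level of control 1 (log2 difference 0.20 ± 0.17, adjusted p = 0.710), and the difference was 0.082 without RAS 3 and 0.34 without RAS 2. Adam9 was the steadiest of the abundant ones, at 33.2, 29.9 and 31.8 in control and 30.0, 29.5 and 29.1 with RAS. Adam10, the sheddase of Notch receptors and of the amyloid precursor, lay at 16.5, 15.3 and 13.5 in control and 15.8, 15.5 and 11.3 with RAS, and its groups overlapped (log2 difference -0.09 ± 0.15). Adam17, the enzyme that releases tumour necrosis factor, lay at 10.6 to 13.4 in control and 9.18 to 10.6 with RAS (log2 difference -0.22, adjusted p = 0.567; -0.14 without control 1). It shares its locus in the table with Iah1 on the other strand, which was at 35.4 to 70.7 FPKM, so reads of the 2 genes may be mixed. Adam12, a marker of fibroblasts and myogenic cells in repair, had a log2 difference of -0.34 that was -0.12 without control 1, -0.085 without RAS 3 and 0.14 without both. The catalytically inactive Adam23 stood at 0.10 (0.004 without RAS 1), the myeloid Adam8 at -0.09, and Adam33 at 0.42 with 1.14 FPKM in control 1 and 2.80 to 4.79 elsewhere. Without control 1 the Adam33 difference was 0.017.

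Timp2, Timp4 and Timp3 had the highest mean FPKM of all members, and with all 6 libraries 0 of 4 Timp genes had an unadjusted p under 0.05 or separate ranges. Timp2, which also takes part in the activation of Mmp2 by Mmp14, lay at 103.7, 201.8 and 213.5 FPKM in control and 142.8, 170.1 and 147.6 with RAS. All RAS values stood between control 1 and control 2 (log2 difference -0.11 ± 0.28), and without control 1 the difference was -0.44, with an unadjusted limma p under 0.05. Timp4, the inhibitor typical of fat and heart, lay at 164.9, 166.2 and 216.9 in control and 129.2, 85.1 and 175.7 with RAS. RAS 3 was inside the control range and the other RAS libraries were below it (log2 difference -0.54 ± 0.27, adjusted p = 0.549). The Timp4 difference was -0.26 without RAS 2, -0.78 without RAS 3 and -0.85 without control 1 and RAS 3. Its unadjusted limma p was under 0.05 in both of the latter, under quantile normalization (-0.65), with sample weights (-0.73) and with the replicate number as a block. Timp3, which is bound to the matrix and inhibits Adam17 and the aggrecanases, lay at 82.8, 136.8 and 130.1 in control and 169.5, 119.1 and 128.5 with RAS (log2 difference 0.27 ± 0.24, adjusted p = 0.722). Without control 1 the Timp3 difference was 0.043, and without RAS 1 it was 0.12. Timp1 was far lower than the others, at 2.26 to 5.92 FPKM in control and 3.06 to 4.55 with RAS, on 26 to 67 reads. Control 1 was the lowest library for 3 of the 4 inhibitors. Timp1, Timp3 and Timp4 lie within the synapsin genes Syn1, Syn3 and Syn2 on the opposite strand, which were at 0.106 to 0.364, 0.162 to 0.334 and 2.55 to 3.97 FPKM. Timp1 also has the same locus in the table as Araf, at 32.7 to 38.3 FPKM, so its level is uncertain. A shared locus does not show whether the genes themselves overlap. Also uncertain are the levels of Mmp19 (Tmem198b, 14.2 to 19.9), Adam10 (LOC100861959, 16.6 to 27.3), Adamts14 (LOC100862379, 2.09 to 5.64) and Adamts9 (A730049H05Rik, 0.468 to 1.96).

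Set side by side, the 19 Mmp genes summed to 168, 178 and 187 FPKM in controls 1 to 3 and 125, 189 and 141 in RAS 1 to 3. The Timp genes summed to 354, 508 and 566 in control and 445, 379 and 456 with RAS, with 98.8 to 99.4% of it from Timp2, Timp3 and Timp4. The ratio of the Mmp to the Timp sum was 0.474, 0.349 and 0.330 in control and 0.281, 0.5 and 0.309 with RAS. The ratios overlapped fully, with means of 0.384 ± 0.0782 and 0.363 ± 0.119 (SD, n = 3 each), and the sign of their difference changed without control 1, RAS 1 or RAS 3. These are sums of transcript levels and say nothing of enzyme activity, which Mmp proenzymes gain by cleavage.

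**Figure D3:**
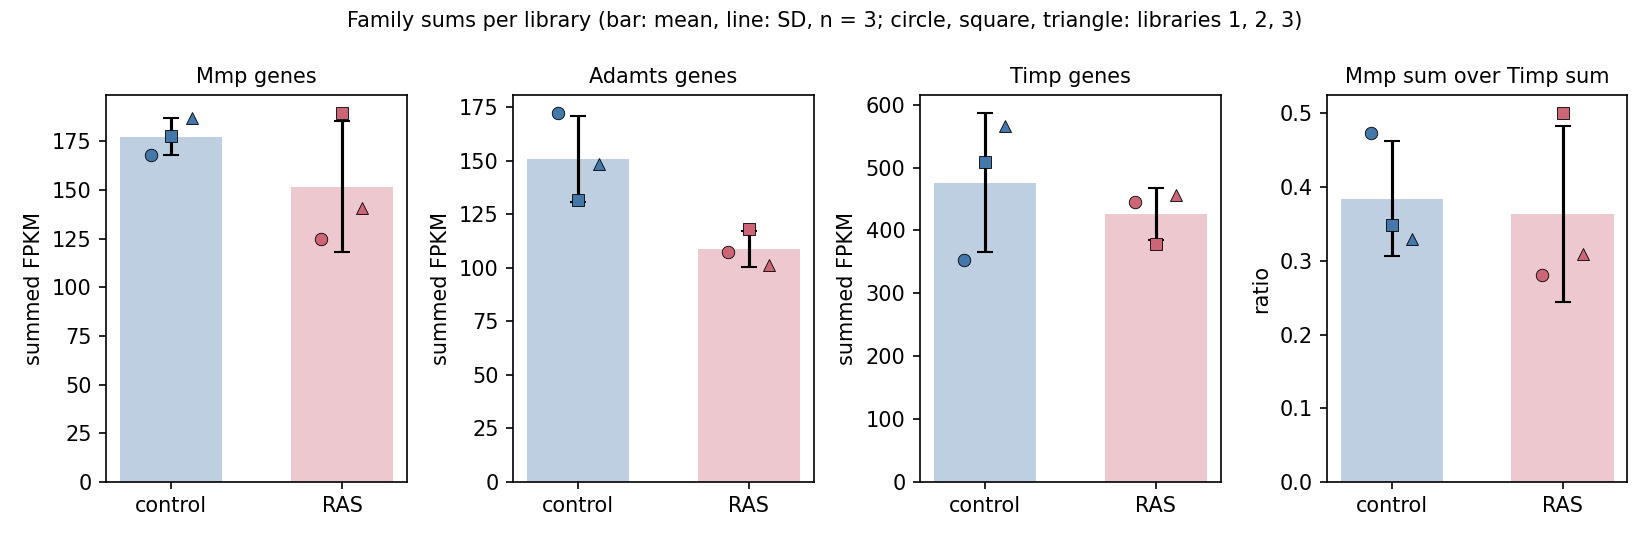
Summed FPKM of all Mmp, Adamts and Timp genes and the ratio of the Mmp to the Timp sum, per library. Bars are group means from 0, lines are SD (n = 3), and symbols are libraries 1 (circle), 2 (square) and 3 (triangle). The Adamts sums of the groups are apart (132 to 172 and 101 to 118 FPKM), and the other panels overlap.

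The library that held the extreme value differed between the families. Control 1 held the highest value of 4 of 10 Adamts and 5 of 10 Adam genes but the lowest of 3 of 4 Timp genes, and it was the lowest library for Adam33, Mmp11 and Mmp12. The part of its low mesothelium markers in these levels was not tested. RAS 3 held the lowest value of 8 of 10 Adamts genes and of 5 of 10 Adam genes. RAS 2 was the highest library for 3 Mmp genes, Mmp2, Mmp3 and Mmp27, and for Adamts12. The widest spreads within groups after Mmp3 were those of Mmp11 (0.585), Adam33 (0.553), Mmp9 (0.546) and Adamts12 (0.543, SD on the log2 scale).

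**Figure D4:**
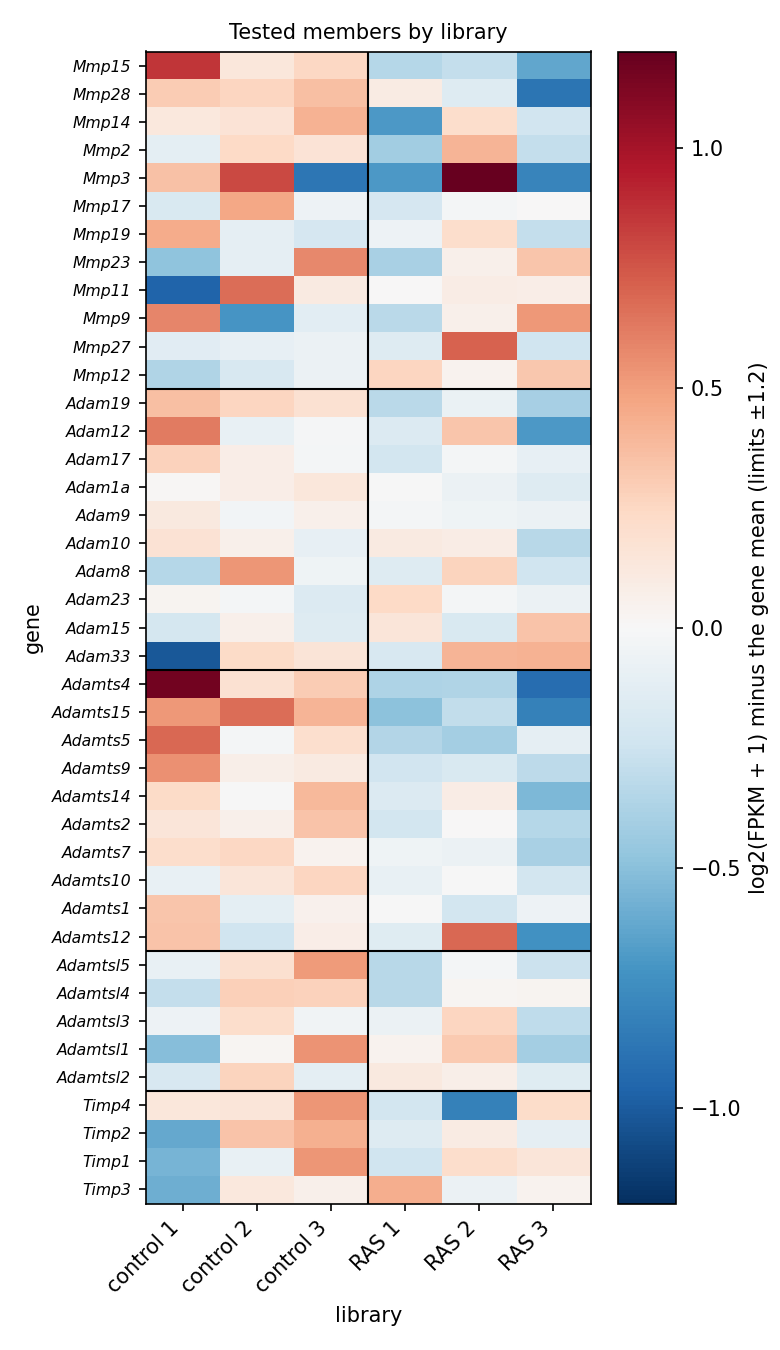
Each tested member's log2(FPKM + 1) in each library minus the gene's mean over the 6 libraries (colour, red above and blue below the mean), by family. The vertical line parts control from RAS libraries. Most Adamts rows are red in control and blue in RAS 3, whereas control 1 is blue in the Timp2, Timp1 and Timp3 rows.

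Of the 27 members under the minimum, 13 had a mean under 0.1 FPKM, among them the sperm-related Adam2 and Adam3, and 17 had a lower and 10 a higher mean with RAS. Adam22 and Adamts16 reached 1 FPKM in a library (1.17 in control 2 and 1.37 in control 1). The ranges were apart for 1 of the 27, Mmp10, with 0.059 to 0.105 FPKM in control and 0 to 0.030 with RAS on at most 4 reads in a library, too few to read a difference. Over all 68 members, 49 had a lower and 19 a higher mean FPKM with RAS, and 46 had a log2 difference below 0. The same shares over all 19928 genes are not given here, so these counts are not read as a result about the members.

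Partners, substrates and other inhibitors were read from 10 lists of 135 genes, of which 109 were tested. The log2 difference was positive for 35 and negative for 74 (67.9%, against 57.0% of all genes tested), with a median of -0.15. At an unadjusted limma p under 0.05, 3 were higher and 11 lower (3.86% and 6.41% of all genes), with 0 past the adjusted threshold. Ranges were apart for 13 on the lower and 3 on the higher side (12.5% and 5.42% of all genes). The counts by list below stand beside these same shares. Substrates of collagenases and gelatinases were lower in 18 of 19 cases (median -0.34), with Col5a1 (log2 difference -0.70), Thbs1 (-0.93) and Tnc (-0.55) of the smallest p and Col1a1 at -0.40. Proteoglycans cut by Adamts enzymes went both ways, 5 higher and 4 lower of 9: versican (Vcan) had a control level of 5.43 ± 1.01 FPKM and a RAS level of 4.05 ± 0.622 (SD), Lum at -0.73 and Fmod at 0.90 on the log2 scale. Of 14 microfibril genes, which Adamtsl and Adamts10 proteins bind, 11 were lower (median -0.07), led by Ltbp1 (-0.22) and Fbn1 (-0.40), with Ltbp2 at 0.31 on the other side.

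Podosome genes, whose products gather Mmp14 and Adam proteins at sites of matrix contact, were lower in 8 of 10 cases. The scaffold Sh3pxd2b was at 12.7, 10.0 and 11.1 FPKM in control and 4.95, 5.69 and 3.77 with RAS (log2 difference -1.09 ± 0.15, adjusted p = 0.174), and its relative Sh3pxd2a at 98.5, 57.2 and 51.8 and 26.8, 49.2 and 39.1 (-0.82 ± 0.30). Both had separate ranges, as had Pxn (-0.17). Of 16 Adam substrates and shed receptors 7 were higher and 9 lower. Cd44, the hyaluronan receptor shed by Adam10 and Mmp14, was at 6.78, 8.53 and 7.63 in control and 3.86, 4.35 and 4.46 with RAS (-0.73 ± 0.12, adjusted p = 0.197). The membrane chemokine Cx3cl1 had a log2 difference of -0.51 and the growth factor Btc, a ligand released by Adam10, one of 1.00, both with separate ranges.

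Of 7 partners of Adam10 and Adam17, 3 were higher and 4 lower: the tetraspanin Tspan14, which escorts Adam10, was at 34.1 ± 1.52 FPKM in the controls and 26.9 ± 1.85 (SD) in the RAS samples (log2 difference -0.33), and the Adam17 escorts Rhbdf2 and Rhbdf1 had 0.16 and -0.09. Proprotein convertases, which remove the prodomain of many of these proteases, split 2 higher and 3 lower, with Pcsk4 at 0.70, Pcsk7 at -0.30 and Furin at -0.23. In the plasminogen system, which activates several Mmp proenzymes, 3 were higher and 4 lower. Thbd, the thrombin receptor thrombomodulin, was at -0.69 with separate ranges, and the plasminogen activator Plat at -0.34. Other inhibitors, clearance receptors and collagen helpers were lower in 8 of 9 cases (Serpinh1 -0.47, Lrp1 -0.32, Pcolce2 -0.27). Further matrix-processing enzymes, not all of them proteases, were lower in 5 of 13 (Tll1 -0.36, Fap -0.31, with Hyal2 at 0.30). Leaving out 1 library moved several of these pathway genes by over 1.5 times: without control 1, Serpinh1 was at -0.30, Sh3pxd2a at -0.54, Col1a1 at -0.16, Fbn1 at -0.10, Furin at -0.048, Fmod at 0.32, Ltbp2 at 0.50 and Hyal2 at 0.45. Without RAS 3, Lrp1 was at -0.11, Ltbp1 at -0.12, Tnc at -0.34 and Rhbdf2 at 0.075. Thbs1 was at -0.62 without control 3 and Pcolce2 at -0.048 without RAS 1.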

How the data were processed

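Poly(A) RNA libraries of 6 adipose samples, 3 per group, were made with a TruSeq kit, per the labels' protocols. The authors deposited FPKM values per gene and sample; the submitters' processing notes list TopHat2 2.0.9 and Cufflinks 2.1.1, and no source used here gives the build, annotation or filters. A count signal per gene, scaled by the authors, was deposited beside it: 98.85 to 98.95% of its values above 0 were whole multiples, within 0.02, of 1 step per sample (0.911 to 1.06), which gives the read numbers printed (14.4 to 15.7 M per library, the limit of precision for low genes). A few values lay under 1 step, so no count model was fitted to it. RAS columns were identified by the group name in the treatment protocol, control columns by elimination, and 4 further columns were not used. Table starts were 1 below the GENCODE M21 (GRCm38) start for 5667 of 18403 genes and equal for 430, so they were read as counted from 0 and are printed counted from 1. Loci overlapped that gene model for 99.67%. The labels name no strand-specific step, and 4251 genes share a locus.

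Genes with a mean of at least 1 FPKM (12606) were tested with limma (moderated by eBayes, trend on) after log2(FPKM + 1), two-sided, Benjamini-Hochberg adjusted over all genes, threshold 0.05. The log2(FPKM + 1) scale understates the change of low genes. Members, gene lists and tests were chosen with earlier results of these data known. Named genes were, per family, the 3 with the highest mean and up to 4 with the smallest p under 0.05, given by library; other tested members by range or difference; and up to 3 genes per list by p, plus Col1a1 (1 gene so chosen is not reported here). Genes named outside this rule, and the promoters shown, were chosen after their values were seen. On simulated data with 12606 genes, 5 runs and 200 changed genes a run, 87.0% of genes changed by log2 1 and 100% of those changed by log2 2 were recovered, beside 12.0 false calls a run. The simulated noise was independent for each gene and library, without shifts in tissue make-up. These rates therefore do not tell how many changes of such sizes would be found in these 6 samples. Alternatives were a pseudocount of 0.1, no minimum or a minimum of 5 FPKM, a block on the replicate number, sample weights, a robust variance model, median-ratio size factors, quantile normalization, each library left out, and control 1 and RAS 3 left out together; the scaled signal in place of FPKM was added after seeing the data. R 4.3.3, limma 3.58.1, Python 3.11.15, pandas 2.3.3, numpy 2.4.6 and matplotlib 3.10.9 were used.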

Additional observations from a re-analysis of the deposited data

How the results depend on the processing

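For the members, 0 genes were past the adjusted threshold in every alternative run. Over all genes the count was 0 to 2 with 1 library left out (2 without control 1, 1 each without RAS 1 and RAS 2) and 3 without control 1 and RAS 3 together, with at least 911 genes at an unadjusted p under 0.05 in every setting. Leaving out each library gave 6 to 11 members lower and 0 to 1 higher at an unadjusted p under 0.05, 25 to 33 below 0, 9 to 10 Adamts genes below 0, a median of -0.28 to -0.086, and 6 to 17 lower and 2 to 4 higher pathway genes. With control 1 and RAS 3 left out together, 0 members and 7 pathway genes were higher. At a minimum of 5 FPKM, where fewer genes are tested (Mmp12 not among them), 0 members and 1 pathway gene were higher. With no minimum, 46 of 68 members and 16 of 19 Adamts genes were below 0. Higher pathway genes numbered 6 under quantile normalization, 5 with median-ratio size factors and 6 with sample weights; the cause was not tested. Group differences in summed FPKM with 1 library left out were -44.5 to -12.3 for Mmp, -111.0 to -4.46 for Timp, -51.5 to -31.3 for Adamts and -0.090 to 0.024 for the Mmp to Timp ratio.

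The numbers do not pair the samples by the labels: same-numbered samples had correlations of deviations of 0.178, 0.096 and 0.219, each sample being closest to its own number. With the replicate number as a block, 10 members were lower and 1 higher at an unadjusted p under 0.05, against 9 and 1, with 0 past the adjusted threshold and a smallest adjusted p of 0.257. Of 643 single-member alternatives 594 kept their direction and 49 turned. Among pathway genes 4 of 489 turned. With sample weights the turned differences were Adam10 0.05, Adamts12 0.11, Mmp11 -0.10, Mmp19 0.094, Mmp23 -0.30, Mmp3 0.14 and Timp1 -0.17. Without control 1 and RAS 3 they were Adam10 0.12, Adam12 0.14, Adam33 -0.086, Adamts12 0.35, Adamtsl3 0.01, Mmp11 -0.34, Mmp19 0.23, Mmp23 -0.39, Mmp3 0.30, Timp1 -0.23, Col1a1 0.02, Fbn1 0.14 and Fmod -0.067. With the scaled signal they were Adam10 0.011 and Mmp23 -0.023. The cause was not tested. With 1 library left out, the differences that turned ranged -0.17 to 0.052 for Adam10, -0.282 to 0.157 for Adam8, -0.5 to 0.208 for Adamts12, -0.3 to 0.223 for Adamtsl1, -0.059 to 0.171 for Adamtsl2, -0.22 to 0.059 for Adamtsl3, -0.33 to 0.483 for Mmp11, -0.28 to 0.046 for Mmp17, -0.22 to 0.11 for Mmp19, -0.229 to 0.299 for Mmp23, -0.096 to 0.376 for Mmp27, -0.833 to 0.168 for Mmp3, -0.14 to 0.507 for Mmp9, -0.18 to 0.364 for Timp1, -0.437 to 0.08 for Timp2, -0.142 to 0.021 for Rhbdf1. The planned count-model alternatives were not run, since a few values of the scaled signal lay under 1 read. Depth limits genes on few reads, Timp1, Adamts4 and Mmp12 among the named ones.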
